A study of Mus musculus with 20 samples.

Results

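The RNA of 10 interleukin receptor chains, none of them a chain of the IL-2 receptor, was followed in mouse regulatory T cells (Tregs) and CD8+ T cells given IL-2 or IL-2-REH. The chains were Il4ra, Il21r, Il10ra, Il6ra, Il6st, Il27ra, Il12rb1, Il12rb2, Il18r1 and Il1rl1, taken by gene symbol from the 23992 symbols measured, with the transcript that had the most reads over the 20 libraries standing for each gene. IL-2-REH is a mutated IL-2 that acts as a partial agonist of the IL-2 receptor. Cells came from spleen and lymph node, and were either left unstimulated (time 0) or cultured with 1 of the cytokines at 200 nM, for 90 min in some groups and 4 hr in others. Tregs were enriched with a CD4+ T cell kit and sorted for GFP from B6-Foxp3EGFP mice, in which the reporter marks cells that express Foxp3, the transcription factor that defines Tregs. CD8+ T cells were isolated by kit alone from C57BL/6J mice, although the sample records give C57BL/6N for both cell types. Each of the 5 Treg groups had 3 libraries, numbered 1 to 3, and each of the 5 CD8+ groups had 1 library. Ages, and whether the 3 libraries of a group came from separate mice, are not given in the sources used here, so p-values measure the spread between libraries, which may be technical. Cells cultured without cytokine for 90 min or 4 hr were not analysed here, so time in culture and the cytokine cannot be told apart in any comparison with unstimulated cells.

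Many interleukin receptors of T cells pair a private chain, which gives specificity, with a chain shared between receptors. Il4ra and Il21r pair with the common gamma chain that the IL-2 receptor also uses, Il6st (gp130) is shared by the IL-6 and IL-27 receptors, and Il12rb1 is shared by the IL-12 and IL-23 receptors. These chains signal through JAK kinases and STAT factors, whereas Il18r1 and Il1rl1 (ST2, the IL-33 receptor) belong to the IL-1 receptor family and signal through the adaptor Myd88. IL-2 signals mainly through STAT5, and ST2 and Il18r1 are known from Tregs of tissues and of inflamed sites.

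Reads on genes numbered 20201392 to 63903764 per Treg library and 38201667 to 45189835 per CD8+ library. Foxp3 lay between 65.2 and 252 RPKM (reads scaled by the transcript's exon length and by the library's mapped reads) in Tregs and between 0.482 and 0.999 RPKM in CD8+ T cells, and Cd8a between 0.0879 and 1.84 RPKM in Tregs and 103 and 256 RPKM in CD8+ T cells, so the cell types matched their labels. Unstimulated Treg library 1 stood apart: over 10473 genes its mean correlation was 0.905 with the other unstimulated libraries and 0.962 with the stimulated libraries of the same number. For unstimulated library 2 the same values were 0.939 and 0.930, and for library 3 they were 0.942 and 0.906. Whether its label is right cannot be told from the sources used here, so it was kept as labelled, and where leaving it out ended or added a call in a comparison with unstimulated Tregs the value without it is given too. The 5 Treg libraries numbered 3 held more transcripts of neutrophils (3 markers listed, 53.2 to 217 summed RPKM, against 0.383 to 4.25 in the other 10) and of erythroid cells (6 markers, 172 to 300 against 6.90 to 26.7 summed RPKM), despite the sort for GFP.

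**Figure D1:**
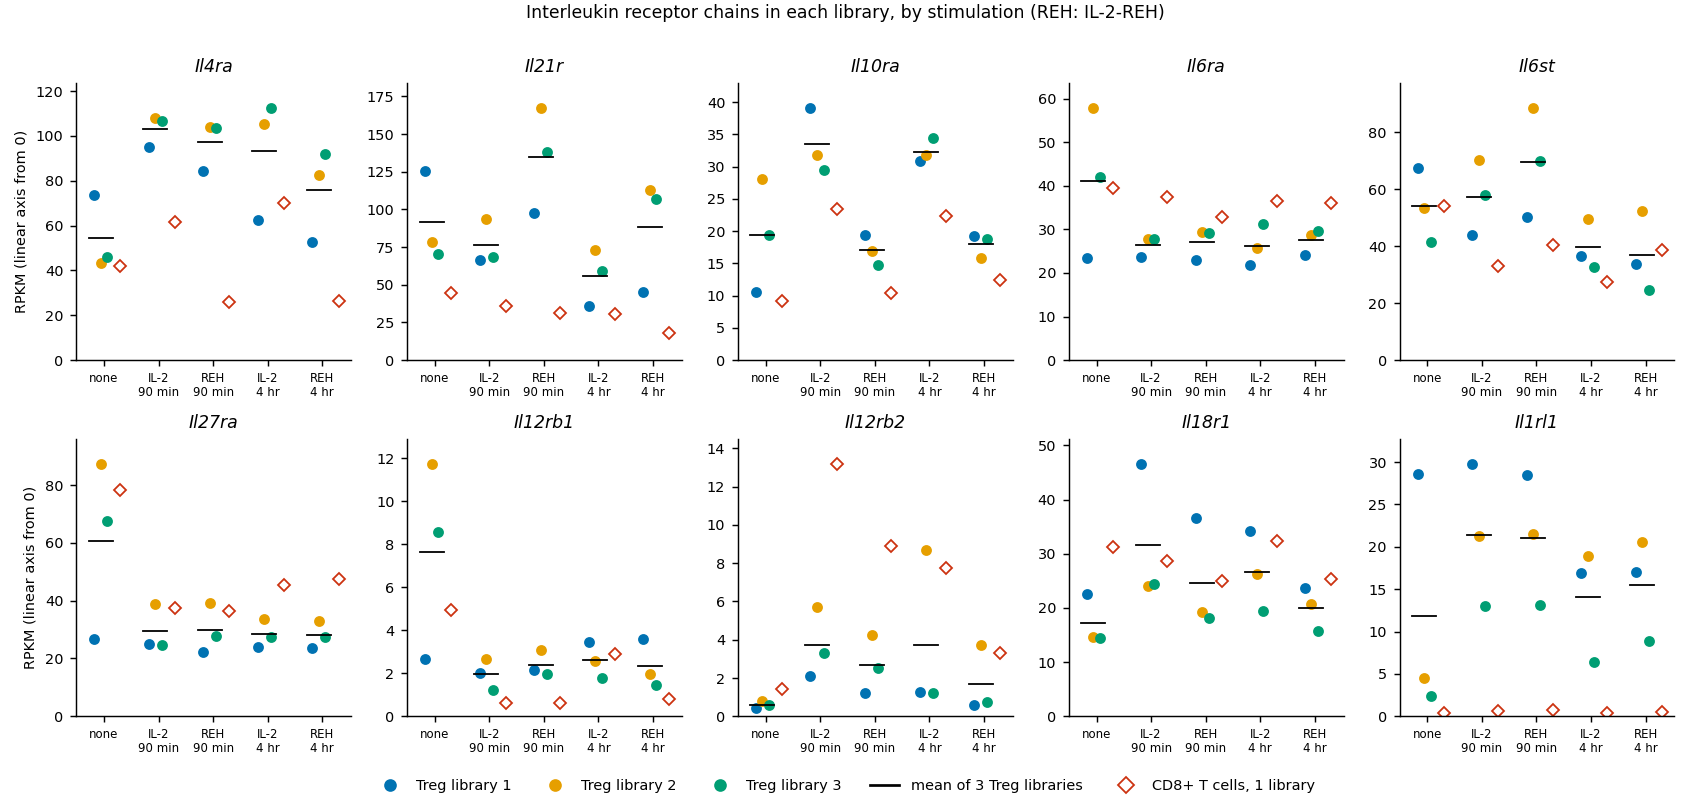
RPKM of each receptor chain in every library (linear axis from 0), by stimulation. Circles are Treg libraries numbered 1 to 3, the bar is their mean, and open diamonds are the single CD8+ libraries. Unstimulated library 1 lies far from libraries 2 and 3 for Il1rl1, Il27ra and Il12rb1, and the CD8+ libraries lie below every Treg library for Il1rl1.

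By mean level in unstimulated Tregs the chains ran from Il21r (91.3 ± 29.6 RPKM, SD, n = 3) through Il27ra (60.6 ± 30.9), Il4ra (54.5 ± 16.8), Il6st (54.1 ± 13) and Il6ra (41.2 ± 17.2) to Il10ra (19.4 ± 8.75), Il18r1 (17.2 ± 4.64), Il1rl1 (11.8 ± 14.5), Il12rb1 (7.66 ± 4.60) and Il12rb2 (0.610 ± 0.198). Each chain overlapped its neighbours in this order, except that all 3 libraries of Il12rb1 lay above all 3 of Il12rb2.

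The first question was which chains differed between stimulated and unstimulated Tregs. After 90 min of IL-2 the mean levels of Il4ra (103 ± 7.07 RPKM, SD, n = 3), Il10ra (33.5 ± 5.02), Il18r1 (31.7 ± 12.9), Il1rl1 (21.4 ± 8.36) and Il12rb2 (3.71 ± 1.84) lay above those of unstimulated Tregs. The means of Il27ra (29.6 ± 8.16), Il6ra (26.4 ± 2.35) and Il12rb1 (1.963 ± 0.7201) lay below them. The remaining chains, Il21r and Il6st, were at 76.1 ± 15.1 and 57.4 ± 13.1 RPKM. After 90 min of IL-2-REH the means of Il4ra, Il12rb2, Il18r1, Il1rl1, Il27ra, Il6ra and Il12rb1 lay on the same sides of the unstimulated means. That of Il10ra was 17.0 ± 2.28 RPKM, close to the unstimulated 19.4 ± 8.75 RPKM. None of these differences passed the test over all Treg libraries, and several did in fits that paired the libraries by number or left out unstimulated library 1. Over all 15 Treg libraries, edgeR's quasi-likelihood test with Benjamini-Hochberg adjustment over 15009 genes called 0 of the 10 chains at an adjusted p under 0.05 in each of the 9 comparisons. The share of all genes called was 0.853% for IL-2 at 90 min, 2.27% for IL-2 at 4 hr, 0.0933% for IL-2-REH at 90 min and 0.313% for IL-2-REH at 4 hr. At an unadjusted p under 0.05 the same comparisons held 6, 6, 4 and 2 chains, against 13.8%, 17.7%, 11.4% and 13.3% of all genes. DESeq2 called 4 chains for IL-2 at 90 min (Il4ra, Il10ra, Il12rb1 and Il12rb2, against 4.54% of genes), 3 for IL-2 at 4 hr (Il10ra, Il12rb1 and Il12rb2, against 6.84%), 0 for IL-2-REH at 90 min (0.867%) and 2 for IL-2-REH at 4 hr (Il12rb1 and Il27ra, against 4.29%). limma on log2(RPKM + 1) called 0 chains in every comparison. The share of all genes that limma called is not given here, so this count cannot be set against it.

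Libraries of the same number deviated together from their group means, so the fit was repeated with the replicate number as a block. With the replicate block, Il12rb2 and Il18r1 rose with IL-2 at 90 min, and Il10ra, Il12rb2 and Il18r1 rose while Il27ra fell with IL-2 at 4 hr. With IL-2-REH, 0 chains were called at 90 min and Il27ra fell at 4 hr. The replicate block called 1.83%, 6.92%, 0.213% and 3.03% of all genes in these 4 comparisons. Without unstimulated library 1 and without the block, 6, 4, 4 and 3 chains were called, against 12.9%, 8.87%, 12.1% and 6.93% of all genes. With both changes to the fit, 9, 8, 8 and 6 chains were called, against 26.9%, 21%, 25.4% and 16.7% of all genes. Il4ra, Il12rb1, Il12rb2, Il1rl1 and Il27ra were called in all 4 comparisons. Il18r1 was called in all but IL-2-REH at 4 hr, and Il6ra in all but IL-2-REH at 90 min. Il10ra was called with IL-2 at both times, Il21r with both cytokines at 90 min, and Il6st with IL-2-REH at 90 min. By RPKM, the stimulated and unstimulated groups did not overlap for 5, 2, 2 and 0 chains, against 12.7%, 14.7%, 9.97% and 13.7% of genes in the same order. Of the 5 for IL-2 at 90 min, 4 lay above (7.14% of genes) and 1 below (5.52%). Without unstimulated library 1 the groups of 8, 8, 9 and 7 chains were free of overlap, against 51.9%, 41.3%, 50.9% and 42.3% of genes. All 3 same-numbered pairs went the same way for 7, 7, 6 and 4 chains, against 31.5%, 34.4%, 29.7% and 33.7% of genes. The median log2 fold change of the 10 chains was 0.54 for each cytokine at 90 min, and -0.12 (IL-2) and -0.07 (IL-2-REH) at 4 hr, where the medians of all genes lay between -0.06 and 0.01. In these bulk libraries, fewer cells of a type and less RNA per cell cannot be told apart.

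**Figure D2:**
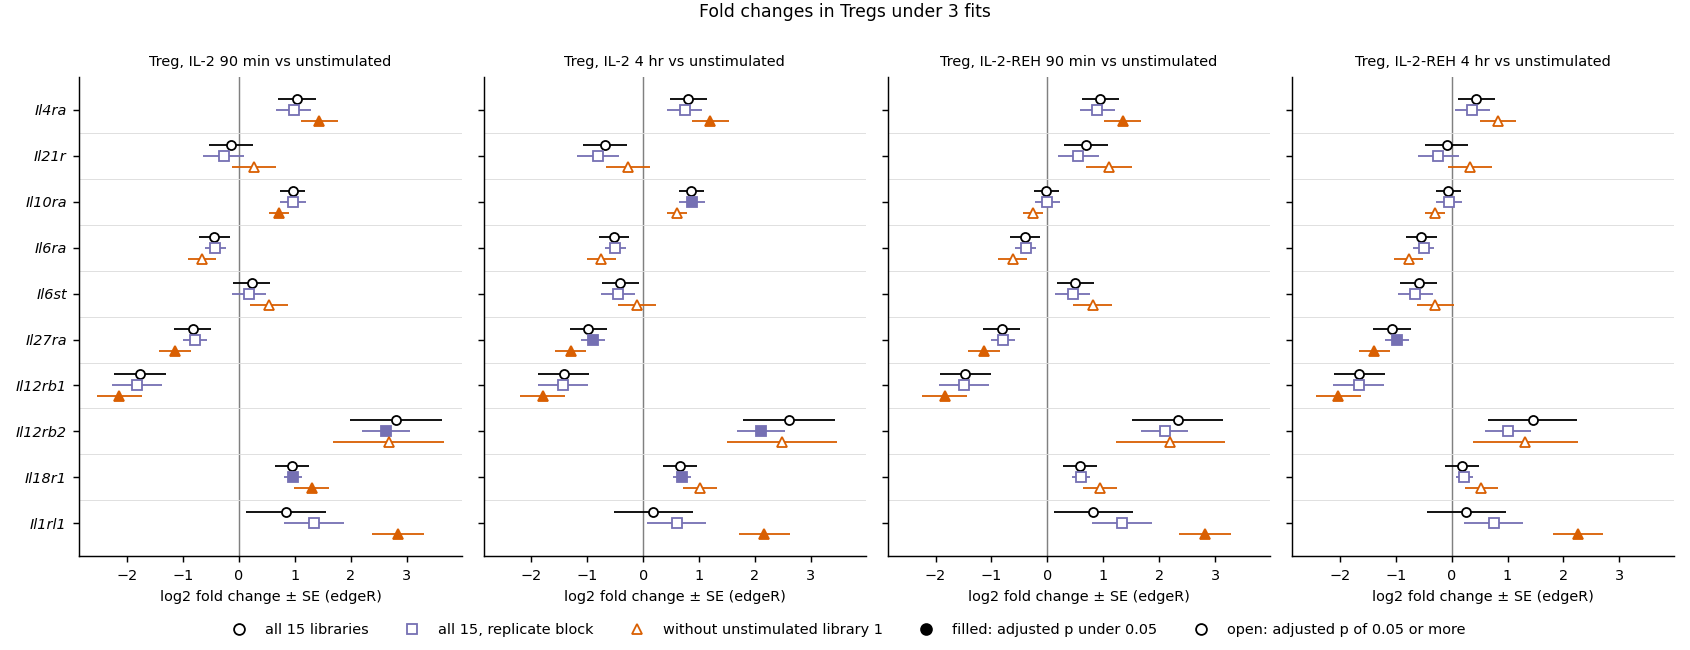
log2 fold change ± SE of each chain in Tregs, stimulated over unstimulated, from edgeR over all 15 libraries (circles), with the replicate block (squares) and without unstimulated library 1 (triangles). Filled symbols passed an adjusted p of 0.05. No circle is filled, and the triangles of Il1rl1 lie at 2.84, 2.17, 2.82 and 2.26 where the circles lie at 0.84, 0.18, 0.82 and 0.26.

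Of the chains that pair with the common gamma chain, Il4ra, which binds IL-4 and, with Il13ra1, IL-13, was measured at 73.8, 43.5 and 46.1 RPKM in unstimulated Treg libraries 1, 2 and 3. With IL-2 it was at 95.1, 108 and 107 RPKM at 90 min, and at 62.3, 105 and 112.5 RPKM at 4 hr. With IL-2-REH it was at 84.3, 104 and 103 RPKM at 90 min and at 52.6, 82.4 and 92.0 RPKM at 4 hr. At 90 min all stimulated libraries lay above all unstimulated ones, and at 4 hr the libraries numbered 1 lay among the unstimulated ones. For IL-2 the log2 fold change came to 1.04 ± 0.333 (SE, edgeR adjusted p = 0.195) at 90 min and 0.81 ± 0.332 (adjusted p = 0.222) at 4 hr, and for IL-2-REH it came to 0.95 ± 0.332 (adjusted p = 0.393) and 0.44 ± 0.33 (adjusted p = 0.613). Without unstimulated library 1, Il4ra rose by edgeR with IL-2 at 90 min (1.44 ± 0.332, adjusted p = 0.0138), with IL-2 at 4 hr (1.20 ± 0.329, adjusted p = 0.0394) and with IL-2-REH at 90 min (1.35 ± 0.331, adjusted p = 0.0192).

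Il21r, the private chain of the IL-21 receptor, had the highest mean RPKM of the chains in unstimulated Tregs and was at 125, 78.5 and 70.3 RPKM. Its 4 comparisons with unstimulated Tregs gave log2 fold changes from -0.68 ± 0.393 (IL-2 at 4 hr) to 0.69 ± 0.393 (IL-2-REH at 90 min), with edgeR adjusted p-values of 0.39 or more. The groups overlapped in all 4 comparisons. When unstimulated library 1 was left out, the 3 libraries given IL-2-REH for 90 min lay above the unstimulated ones (log2 fold change 1.1 ± 0.41, edgeR adjusted p = 0.102). With the replicate block as well, Il21r rose at 90 min with IL-2 (0.55 ± 0.178, edgeR adjusted p = 0.039) and with IL-2-REH (1.34 ± 0.182, adjusted p = 0.000279). Its values in stimulated Tregs are given with the comparison of the cytokines.

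Il10ra, the ligand-binding chain of the receptor for the inhibitory cytokine IL-10, was measured at 10.6, 28.1 and 19.5 RPKM in unstimulated Tregs. With IL-2 it was at 39.1, 31.8 and 29.5 RPKM at 90 min and at 30.8, 31.7 and 34.4 RPKM at 4 hr. All 6 of these libraries lay above all unstimulated ones, and every same-numbered pair was higher with IL-2. The log2 fold change was 0.96 ± 0.227 (edgeR adjusted p = 0.0744) at 90 min and 0.86 ± 0.227 (adjusted p = 0.0662) at 4 hr, and with the replicate block it was 0.97 ± 0.232 (adjusted p = 0.0515) and 0.87 ± 0.232 (adjusted p = 0.0403). Without unstimulated library 1 it was 0.72 ± 0.182 (adjusted p = 0.0206) and 0.61 ± 0.181 (adjusted p = 0.0527). With IL-2-REH, Il10ra was at 19.3, 16.9 and 14.8 RPKM at 90 min and at 19.2, 15.8 and 18.8 RPKM at 4 hr. These levels overlapped those of unstimulated Tregs, with log2 fold changes of -0.02 ± 0.226 (edgeR adjusted p = 0.987) and -0.06 ± 0.226 (adjusted p = 0.944). The overlap rested on unstimulated library 1, without which all IL-2-REH libraries lay below the unstimulated ones, with log2 fold changes of -0.26 ± 0.177 (edgeR adjusted p = 0.38) and -0.30 ± 0.177 (adjusted p = 0.313).

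The chains that lay lower in stimulated Tregs belong to the IL-6, IL-27 and IL-12 receptors. Il27ra, which binds IL-27 together with gp130, was at 26.8, 87.3 and 67.7 RPKM in unstimulated Tregs. In the 12 stimulated libraries it lay between 22.3 and 39.1 RPKM. Unstimulated library 1 lay within the stimulated range, and the other two lay above it. The log2 fold change was -0.83 ± 0.335 with IL-2 at 90 min (edgeR adjusted p = 0.297), -0.98 ± 0.336 with IL-2 at 4 hr (adjusted p = 0.15), -0.82 ± 0.335 with IL-2-REH at 90 min (adjusted p = 0.404) and -1.07 ± 0.336 with IL-2-REH at 4 hr (adjusted p = 0.184). Il27ra fell by edgeR in all 4 comparisons once unstimulated library 1 was left out, with log2 fold changes of -1.14, -1.3, -1.13 and -1.38 (adjusted p = 0.0192, 0.0148, 0.021 and 0.0138). With the replicate block and all libraries it fell by edgeR at 4 hr, by 0.89 ± 0.216 on the log2 scale with IL-2 (adjusted p = 0.0257) and by 0.98 ± 0.216 with IL-2-REH (adjusted p = 0.0291). All 12 same-numbered pairs were lower after stimulation, those numbered 1 by a log2 ratio of RPKM + 1 of -0.25 to -0.10 and the others of -1.41 to -1.14.

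Il12rb1, shared by the receptors of IL-12 and IL-23, was a low transcript, with 170 to 2460 reads per Treg library. It was at 2.67, 11.7 and 8.56 RPKM in unstimulated Tregs. With IL-2 it was at 2.0, 2.67 and 1.23 RPKM at 90 min and at 3.46, 2.58 and 1.79 RPKM at 4 hr. At 90 min the IL-2 libraries lay below all unstimulated ones, by a margin that rested on unstimulated library 1 (2.673 against 2.665 RPKM). IL-2 gave a log2 fold change of -1.77 ± 0.463 at 90 min (edgeR adjusted p = 0.112) and -1.42 ± 0.459 at 4 hr (adjusted p = 0.13). With IL-2-REH it was -1.47 ± 0.459 at 90 min (edgeR adjusted p = 0.389) and -1.65 ± 0.462 at 4 hr (adjusted p = 0.149). Leaving out unstimulated library 1, Il12rb1 fell by edgeR in all 4 comparisons, with log2 fold changes of -2.14 to -1.8 and adjusted p-values from 0.00471 to 0.0161.

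Il6ra, the IL-6-binding chain, was at 23.5, 57.9 and 42.1 RPKM in unstimulated Tregs and between 21.9 and 31.3 RPKM in the 12 stimulated libraries. Unstimulated library 1 again lay within the stimulated range. The log2 fold changes ran from -0.54 ± 0.272 (IL-2-REH at 4 hr) to -0.40 ± 0.272 (IL-2-REH at 90 min), with edgeR adjusted p-values of 0.338 to 0.584. Without that library they ran from -0.77 to -0.62, with edgeR adjusted p-values of 0.0879 to 0.14. With the replicate block as well, Il6ra fell with IL-2 at 90 min (-0.55 ± 0.177, edgeR adjusted p = 0.037) and 4 hr (-0.63 ± 0.178, adjusted p = 0.026). In that fit it also fell with IL-2-REH at 4 hr (-0.63 ± 0.178, edgeR adjusted p = 0.0301). Il6st, which encodes gp130, was at 67.5, 53.3 and 41.6 RPKM in unstimulated Tregs and between 24.6 and 88.6 RPKM in stimulated ones. Its groups overlapped in every comparison with and without library 1. With the replicate block and without library 1, Il6st rose with IL-2-REH at 90 min (0.91 ± 0.252, edgeR adjusted p = 0.0186). Macrophage and monocyte markers moved with the same libraries as Il27ra, Il12rb1 and Il6ra. The summed level of the 6 myeloid markers listed, of 7 looked for, was 15.6, 57.1 and 51.0 RPKM in unstimulated libraries 1, 2 and 3 and lay between 8.58 and 35.6 RPKM in stimulated ones. Of these 6 markers, 6 in unstimulated and 5 or 6 in stimulated Treg groups reached 1 RPKM in at least 1 library of the group. The summed level of 5 markers of natural killer cells was 1.28, 8.95 and 6.09 RPKM against 0.486 to 5.72 RPKM. The part of either cell type in the lower levels of these chains was not tested.

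Il12rb2, a signalling chain of the IL-12 receptor, and Il18r1, the IL-18-binding chain, were the chains called with IL-2 at both times in the fit with the replicate block. Il12rb2 was at 0.431, 0.823 and 0.575 RPKM in unstimulated Tregs, from 79, 177 and 103 reads. With IL-2 it was at 2.09, 5.71 and 3.33 RPKM at 90 min and at 1.24, 8.70 and 1.21 RPKM at 4 hr. With IL-2-REH it was at 1.22, 4.26 and 2.52 RPKM at 90 min and at 0.599, 3.73 and 0.768 RPKM at 4 hr. Except with IL-2-REH at 4 hr, all stimulated libraries lay above all unstimulated ones, and library 2 was the highest in every group. IL-2 gave a log2 fold change of 2.81 ± 0.828 at 90 min (edgeR adjusted p = 0.158) and 2.61 ± 0.822 at 4 hr (adjusted p = 0.122), and with the replicate block 2.63 ± 0.422 (adjusted p = 0.00585) and 2.11 ± 0.423 (adjusted p = 0.0104). When unstimulated library 1 was left out and no block was used it was 2.68 (edgeR adjusted p = 0.0954) and 2.48 (adjusted p = 0.135). With IL-2-REH it was 2.33 ± 0.814 at 90 min (edgeR adjusted p = 0.393, with the replicate block 0.0859) and 1.45 ± 0.795 at 4 hr (adjusted p = 0.467, with the replicate block 0.197).

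Il18r1 was at 22.6, 14.7 and 14.5 RPKM in unstimulated Tregs. With IL-2 it was at 46.6, 24.1 and 24.4 RPKM at 90 min and at 34.2, 26.2 and 19.4 RPKM at 4 hr. With IL-2-REH it was at 36.6, 19.2 and 18.1 RPKM at 90 min and at 23.6, 20.7 and 15.8 RPKM at 4 hr. Library 1 was the highest in every group, and all 12 same-numbered pairs were higher after stimulation, by log2 ratios of RPKM + 1 from 0.06 to 1.01. IL-2 gave a log2 fold change of 0.95 ± 0.309 at 90 min (edgeR adjusted p = 0.204) and 0.66 ± 0.307 at 4 hr (adjusted p = 0.279), and with the replicate block 0.97 ± 0.16 (adjusted p = 0.00647) and 0.69 ± 0.159 (adjusted p = 0.0214). Leaving out unstimulated library 1 gave 1.3 ± 0.308 (edgeR adjusted p = 0.015) and 1.01 ± 0.304 (adjusted p = 0.0568). With IL-2-REH and the block it was 0.60 ± 0.159 at 90 min (edgeR adjusted p = 0.186) and 0.23 ± 0.159 at 4 hr (adjusted p = 0.442).

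The promoter windows of Il18r1 and Il12rb2 are shown because these are the chains called with IL-2 at both times with the block, and because a search for the letters TTCNNNGAA, the palindrome that STAT5 is known to bind, found it there. Of 10 windows listed for 7 of the chains by RefSeq (GRCm38.p6, 250 bases before to 50 after a start site), 2 held it, and of all 32851 windows 8.3% did. The palindrome reads alike on both strands and was the only motif searched. Il10ra, Il12rb1 and Il27ra had no window in the table. The window of the most downstream of 3 start sites of Il18r1 held it at 219 and 152 bases before the start site, and that of Il12rb2 at 123 bases before it, as capitals mark in the lines that follow, 5′ to 3′ on the strand of the gene. A match of letters is a description and not a measured binding site.
Il18r1, chr1:40465756-40466055, plus strand: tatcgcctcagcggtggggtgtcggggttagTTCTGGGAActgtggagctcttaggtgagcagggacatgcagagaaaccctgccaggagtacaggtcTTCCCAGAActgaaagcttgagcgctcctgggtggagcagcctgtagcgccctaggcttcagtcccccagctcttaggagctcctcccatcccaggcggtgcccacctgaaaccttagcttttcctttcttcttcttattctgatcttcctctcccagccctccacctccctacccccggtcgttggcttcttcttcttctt
Il12rb2, chr6:67376139-67376438, minus strand: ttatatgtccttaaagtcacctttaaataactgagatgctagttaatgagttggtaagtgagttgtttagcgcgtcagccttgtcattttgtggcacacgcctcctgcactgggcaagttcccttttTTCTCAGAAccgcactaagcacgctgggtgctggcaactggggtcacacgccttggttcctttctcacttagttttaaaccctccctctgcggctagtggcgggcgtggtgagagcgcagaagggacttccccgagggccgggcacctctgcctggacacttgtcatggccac

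Il1rl1, which encodes the IL-33 receptor ST2, varied the most between unstimulated libraries relative to its mean, and was at 28.6, 4.5 and 2.41 RPKM. With IL-2 it was at 29.8, 21.3 and 13.1 RPKM at 90 min and at 16.9, 18.9 and 6.45 RPKM at 4 hr. With IL-2-REH it was at 28.5, 21.5 and 13.1 RPKM at 90 min and at 17.1, 20.6 and 8.89 RPKM at 4 hr. Pairs numbered 2 and 3 were higher after stimulation in all 4 comparisons, by log2 ratios of RPKM + 1 from 1.13 to 2.05, whereas pairs numbered 1 gave ratios from -0.72 to 0.06. Over all libraries the log2 fold changes were 0.84 ± 0.71, 0.18 ± 0.706, 0.82 ± 0.71 and 0.26 ± 0.706, with edgeR adjusted p-values of 0.634 or more. Without unstimulated library 1, Il1rl1 rose by edgeR in all 4, by 2.84 ± 0.465 under IL-2 (adjusted p = 0.00217) and 2.82 ± 0.465 under IL-2-REH (adjusted p = 0.0023) at 90 min, and by 2.17 ± 0.449 (adjusted p = 0.0113) and 2.26 ± 0.451 (adjusted p = 0.0126) at 4 hr. The call on Il1rl1 therefore rests on whether that library is kept.

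**Figure D3:**
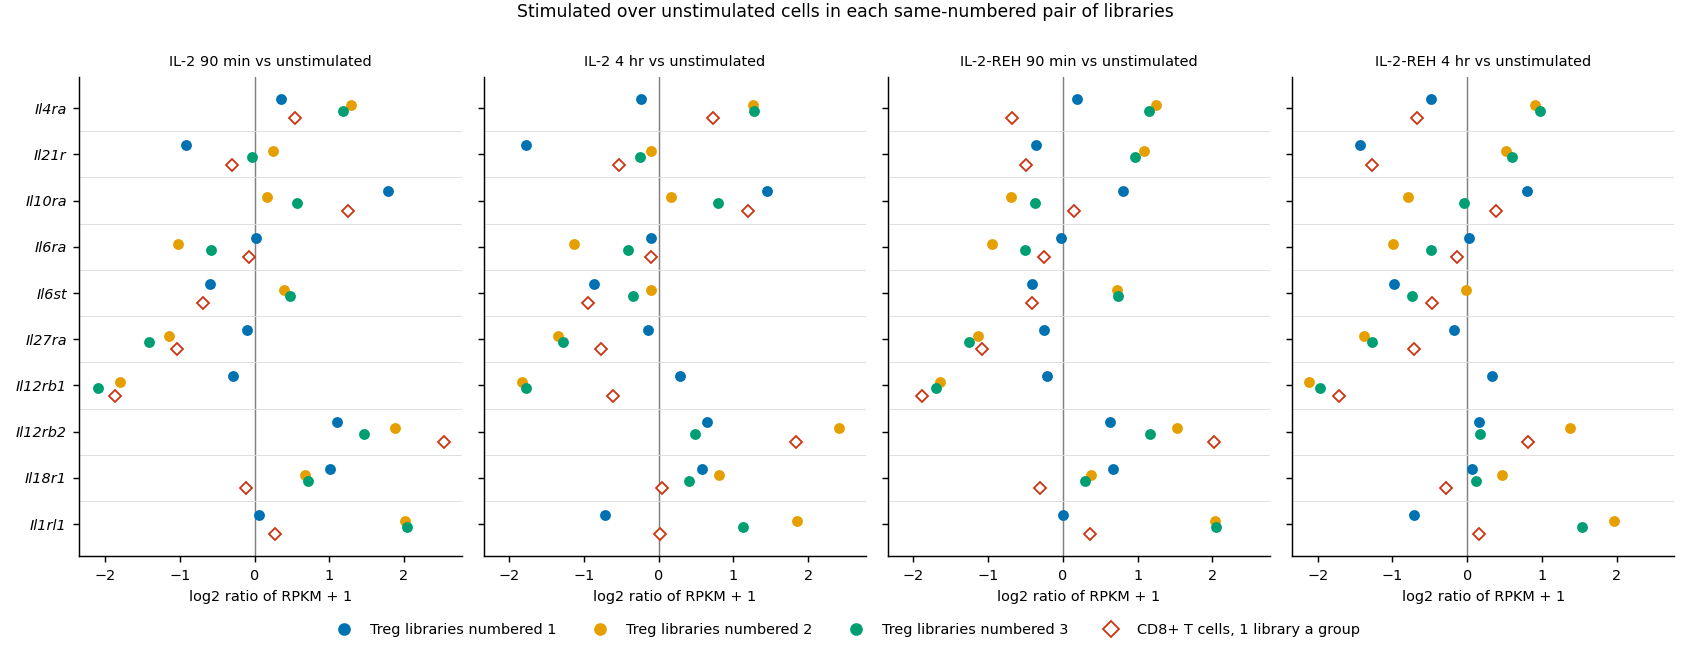
log2 ratio of RPKM + 1, stimulated over unstimulated, for each chain in each same-numbered pair of Treg libraries (circles) and in CD8+ T cells (open diamonds, 1 library a group). The circles of Il18r1 and Il12rb2 lie above 0 and those of Il27ra below 0 in all 4 comparisons, and pair 1 lies apart from pairs 2 and 3 for Il1rl1, Il12rb1 and Il4ra.

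Tregs given IL-2 and IL-2-REH were then compared at the same time and dose. edgeR called 0 of the 10 chains at 90 min, where 0.0133% of all genes were called, and 0 at 4 hr, where 0.0267% were called, and with the replicate block again 0 and 0 (0.0133% and 0.0666% of genes), and without unstimulated library 1 also 0 and 0 (0.0323% and 0.071%). With the replicate block and without unstimulated library 1, Il10ra was called as lower with IL-2-REH at both times (edgeR adjusted p = 0.038 and 0.0259), with 0.0968% and 0.549% of genes called. At an unadjusted p under 0.05 there was 1 chain at each time, Il10ra, against 0.993% and 3.72% of all genes, and with the replicate block there were 3 at each time, against 1.75% and 6.2%. By their intervals the other two were Il18r1 and Il21r at 90 min and Il18r1 and Il12rb2 at 4 hr. Without the block, DESeq2 called 0 at 90 min (0.0698% of genes) and Il10ra at 4 hr (0.401% of genes). Il10ra was lower with IL-2-REH than with IL-2 in all 6 same-numbered pairs, and the groups did not overlap at either time. By RPKM, 5.46% of all genes did not overlap at 90 min and 7.79% at 4 hr, and all 3 pairs went the same way for 7 and 6 chains, against 35% and 38.8% of genes. The mean of Il10ra was 33.5 ± 5.02 RPKM (SD, n = 3) in the IL-2 group and 17.0 ± 2.28 RPKM in the IL-2-REH group at 90 min, and 32.3 ± 1.86 and 18.0 ± 1.86 RPKM at 4 hr. The log2 difference was -0.98 ± 0.228 (SE, 95% interval -1.47 to -0.49, edgeR adjusted p = 0.87) at 90 min and -0.92 ± 0.227 (-1.40 to -0.43, adjusted p = 0.417) at 4 hr. The pairs gave log2 ratios of RPKM + 1 from -0.98 to -0.87 at 90 min and from -0.96 to -0.65 at 4 hr.

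Il21r was the chain that lay higher with IL-2-REH in every same-numbered pair at both times. It was at 66.3, 93.5 and 68.5 RPKM with IL-2 and at 97.5, 167.4 and 138 RPKM with IL-2-REH at 90 min. At 4 hr it was at 35.9, 73.2 and 59.1 RPKM with IL-2 and at 45.4, 113 and 107 RPKM with IL-2-REH. All 6 pairs were higher with IL-2-REH, and the groups did not overlap at 90 min but did at 4 hr, where library 1 was the lowest of both groups. The log2 difference was 0.83 ± 0.394 (95% interval -0.01 to 1.68, with the replicate block 0.03 to 1.59, edgeR adjusted p = 1.0 without it) at 90 min and 0.59 ± 0.392 (-0.25 to 1.44, adjusted p = 1.0) at 4 hr.

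For the other 8 chains, the log2 difference between IL-2-REH and IL-2 lay between -0.48 and 0.30 at 90 min and between -1.16 and 0.08 at 4 hr, and every 95% interval of the fit without the block included 0. Il12rb2 and Il18r1 were lower with IL-2-REH in all 6 pairs, and so was Il4ra, but their groups overlapped. Il6st and Il12rb1 were higher with IL-2-REH in all 3 pairs at 90 min, and Il1rl1 was in all 3 at 4 hr, also with overlap. The intervals at 4 hr were -2.83 to 0.52 for Il12rb2, -1.14 to 0.18 for Il18r1 and -1.08 to 0.33 for Il4ra, and each of them reached past a level 2-fold lower with IL-2-REH. In the fit with the replicate block, the intervals of Il18r1 were narrower and lay below 0, at -0.71 to -0.03 at 90 min and -0.80 to -0.11 at 4 hr, and that of Il12rb2 was -1.36 to 0.32 at 90 min and -1.96 to -0.24 at 4 hr. These intervals are not adjusted for the number of genes. For Il6ra the intervals were -0.54 to 0.62 at 90 min and -0.60 to 0.57 at 4 hr, the narrowest of the 8 without the block. The change of the difference between cytokines from 90 min to 4 hr was called for 0 chains and for 0% of genes, also at an unadjusted p under 0.05 for 0 chains and by DESeq2 for 0 chains.

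**Figure D4:**
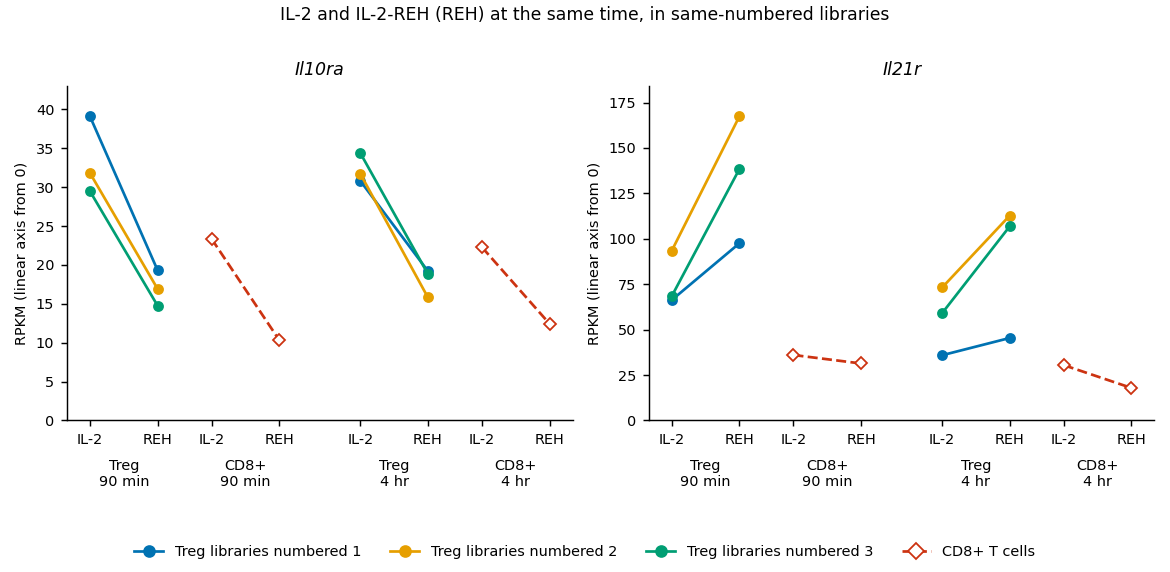
RPKM (linear axis from 0) of Il10ra and Il21r with IL-2 and IL-2-REH at 90 min and 4 hr. Solid lines join Treg libraries of the same number and dashed lines the single CD8+ libraries. All 6 Treg lines of Il10ra go down from IL-2 to IL-2-REH and all 6 of Il21r go up, while both CD8+ lines go down for both genes.

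Between 90 min and 4 hr, edgeR called 0 chains and 0% of genes with either cytokine. With the replicate block it called 0 chains (0.386% and 0.04% of genes), and without unstimulated library 1 also 0 (0.678% and 0.458%). At an unadjusted p under 0.05 there were 0 chains (IL-2) and 1 chain (IL-2-REH), against 17% and 14.6% of genes, and DESeq2 called 0 chains under either (3.19% and 1.98% of genes). The groups of 0 chains were free of overlap, against 17.1% (IL-2) and 19.1% (IL-2-REH) of genes. Il6st, Il1rl1 and Il21r were lower at 4 hr in all 6 pairs of the same cytokine and number, where 38.6% (IL-2) and 45.4% (IL-2-REH) of genes went the same way in all 3 pairs. With the replicate block and without unstimulated library 1, Il1rl1 and Il21r fell with IL-2 (11.6% of genes called), and Il1rl1, Il21r, Il4ra and Il6st fell with IL-2-REH (11.4%). The largest difference was that of Il6st with IL-2-REH, which went from 69.5 ± 19.2 to 36.9 ± 14.2 RPKM (SD, n = 3), a log2 fold change of -1.1 ± 0.333 (SE, edgeR adjusted p = 0.248), and with IL-2 it went from 57.4 ± 13.1 to 39.7 ± 8.95 RPKM (-0.65 ± 0.33, adjusted p = 0.33).

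CD8+ T cells had 1 library per group, so their values carry no replicate error and were not tested. Of the 10 chains, 9 had a mean of at least 1 RPKM over the 5 libraries, and Il1rl1 did not. A log2 ratio of RPKM + 1 past 1 in either direction was counted. With IL-2 at 90 min, 4 of 9 chains were past this limit, against 7.24% of 10021 genes. They were Il12rb2, which went from 1.45 to 13.2 RPKM, and Il10ra, from 9.21 to 23.4 RPKM, which were higher, and Il12rb1, from 4.95 to 0.636 RPKM, and Il27ra, from 78.4 to 37.6 RPKM, which were lower. With IL-2 at 4 hr, 2 chains were past it (4.71% of genes), Il12rb2 at 7.74 RPKM and Il10ra at 22.3 RPKM, both higher.

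With IL-2-REH at 90 min, 3 chains of CD8+ T cells were past the limit (8.57% of genes). Il12rb2 was higher at 8.92 RPKM, and Il12rb1 at 0.610 RPKM and Il27ra at 36.6 RPKM were lower than in unstimulated cells. With IL-2-REH at 4 hr, 2 chains were past it (6.11% of genes), Il12rb1 at 0.808 RPKM and Il21r at 17.9 RPKM against 44.5 RPKM, both lower. Directly against IL-2, IL-2-REH gave lower levels of 2 chains at 90 min (0.868% of genes) and of 3 chains at 4 hr (2.23%). Il4ra was among them at both times, with IL-2 at 61.6 RPKM and with IL-2-REH at 26.0 RPKM at 90 min, and at 69.9 and 26.2 RPKM at 4 hr. Unstimulated CD8+ T cells had 42.2 RPKM of Il4ra, so IL-2 lay above and IL-2-REH below that level at both times. Il10ra was past the limit at 90 min, going from 23.4 RPKM (IL-2) to 10.3 RPKM (IL-2-REH), and its log2 ratio at 4 hr was -0.79. At 4 hr Il12rb1 (2.89 against 0.808 RPKM) and Il12rb2 (7.74 against 3.33 RPKM) were also past it. The 95% counting error of these log2 ratios was at most ± 0.2 for the chains named other than Il12rb1, for which it reached ± 0.29, and it covers counting error only.

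Between the cell types, 1 of the 10 chains did not overlap, Il1rl1, where 9.98% of 10457 genes did not. Il1rl1 lay between 2.41 and 29.8 RPKM in the 15 Treg libraries (median 17.1) and between 0.356 and 0.738 RPKM in the 5 CD8+ libraries (median 0.517, 111 to 233 reads), a 33-fold difference of medians. The other IL-1 family chain, Il18r1, overlapped, at 14.5 to 46.6 RPKM in Tregs and 25.0 to 32.4 RPKM in CD8+ T cells. By median, Il4ra, Il21r, Il10ra, Il12rb1 and Il6st were higher in Tregs, by 2.18, 2.50, 1.57, 3.20 and 1.29 fold, and Il12rb2, Il27ra, Il6ra and Il18r1 were higher in CD8+ T cells, by 6.23, 1.65, 1.31 and 1.27 fold. With only the Treg libraries numbered 2 and 3, Il21r was also free of overlap, at 59.1 RPKM or more in Tregs and at most 44.5 RPKM in CD8+ T cells. Fewer libraries make a lack of overlap easier for any gene, and the share of all genes in that setting is not given here. The cell types came from different isolations and, by the protocol, from different mouse lines, although the sample records give C57BL/6N for both. The mouse line, the isolation and the cell type therefore cannot be told apart. The 5 natural killer cell markers, some of which CD8+ T cells also express, summed to 14.7 to 36.9 RPKM in the CD8+ libraries, which were not sorted, and their part in the higher Il12rb2 level was not tested.

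Several of the chains lie next to each other in the genome, and the counting of reads bears on them. On GRCm38, Il1rl1 (chr1:40404864-40465418) and Il18r1 (chr1:40465552-40500854) are 133 bases apart on the plus strand, and Il4ra (chr7:125552271-125579474) and Il21r (chr7:125603252-125634397) are 23777 bases apart on the plus strand. Between neither pair lies another protein-coding gene. Il27ra (chr8:84030286-84042600) overlaps Palm3, Il12rb2 (chr6:67285986-67376293) overlaps Serbp1, and Il6ra (chr3:89869324-89913196) overlaps Gm46811 in the annotation, and whether counting used the strand is not given in the sources used here. Il10ra (chr9:45253837-45269149) overlaps Mir7086. Il12rb1 (chr8:70808360-70823542) and Il6st (chr13:112464070-112506860) overlap no other gene.

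Of the 10 chains, 8 were listed with 1 transcript. Il1rl1 was listed with 2, the long form of the membrane receptor (NM_001025602, 11 exons) and the short form (NM_010743, 8 exons), which encodes soluble ST2 and has its own 3′ end. By the GENCODE vM21 exons, the forms share 1188 bases, 22.4% of the long form, and 1473 bases belong to the short form alone. Il18r1 was listed with 3, of which the short NM_001161842 shares 1327 bases (31.9%) with NM_008365 and has 592 bases of its own. Since reads on shared exons count for both forms, the reads on the short form were read only as a percentage of those on the long form. For Il1rl1 this percentage was 26.2 to 38.8% (median 32.5%) in 13 Treg libraries and 24.3 to 36.9% in CD8+ T cells. In the 2 libraries numbered 3 at 4 hr it was lower, 19.1% (IL-2) and 18.8% (IL-2-REH). For Il18r1 it was 34 to 43% in the 13 Treg libraries, and 32.1% (IL-2) and 19.2% (IL-2-REH) in those 2. The same libraries were thus the lowest for both genes. Without them, 0 chains were called by edgeR in every comparison. The fit with all 15 Treg libraries also called 0, so leaving them out could not end a call. The share of all genes called without them is not given here.

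**Figure D5:**
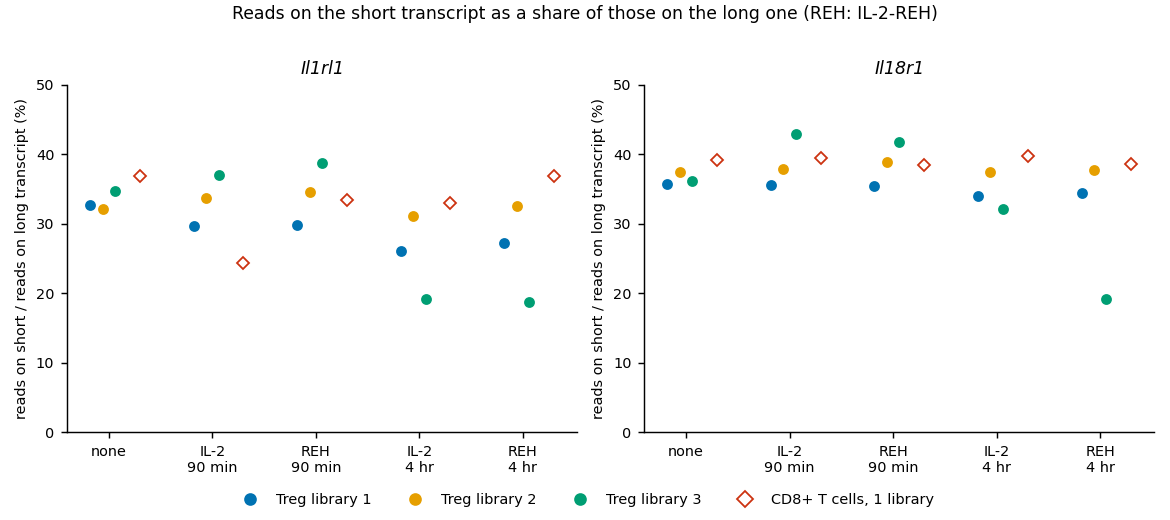
Reads counted on the short transcript as a percentage of reads counted on the long one, for Il1rl1 and Il18r1, in every Treg library (circles) and CD8+ library (open diamonds). The 4 hr libraries numbered 3 lie at 19.1% and 18.8% for Il1rl1 and at 32.1% and 19.2% for Il18r1.

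Lists of related genes, chosen with earlier results of these data known, were counted in the same edgeR fit over all 15 Treg libraries. With IL-2 at 4 hr, 1 of 3 IL-2 receptor chains rose, Il2ra, the high-affinity chain (1.15 ± 0.268, adjusted p = 0.0407), and 1 of 21 tested partner and other interleukin receptor chains fell, Il7r of the IL-7 receptor (-1.37 ± 0.278, adjusted p = 0.0232). In the other 3 comparisons with unstimulated Tregs 0 of either list were called, and with the replicate block Il17rb and Il31ra also fell with IL-2 at 4 hr, Il17rb and Il1r1 fell with IL-2-REH at 4 hr, and Il1rl2 rose with IL-2 at 90 min. Il2rg, the common gamma chain that Il4ra and Il21r pair with, was at 258 ± 11.1 RPKM (SD, n = 3) in unstimulated Tregs, 219 ± 17.8 with IL-2 at 90 min and 133 ± 69.6 with IL-2 at 4 hr, and it fell with the replicate block at 4 hr (-0.98 ± 0.272, edgeR adjusted p = 0.0467). The partners of Il18r1, Il1rl1, Il4ra and Il10ra were at 4.23 ± 1.73 RPKM (Il18rap), 3.12 ± 0.255 RPKM (Il1rap), 0.692 ± 0.119 RPKM (Il13ra1) and 28.2 ± 5.01 RPKM (Il10rb) in unstimulated Tregs. Of 17 tested chains of other cytokine receptors, 0 were called in these 4 comparisons, and with the replicate block Csf2rb2 rose at 4 hr with IL-2 (1.37 ± 0.277, edgeR adjusted p = 0.0109) and with IL-2-REH (1.17 ± 0.275, adjusted p = 0.0368).

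Of the signalling genes, 3 of 9 feedback inhibitors rose with IL-2, Cish (2.12 ± 0.187 at 90 min and 1.56 ± 0.184 at 4 hr), Socs1 (2.28 ± 0.384 and 2.36 ± 0.385) and Socs2 (1.74 ± 0.276 and 1.70 ± 0.275), with edgeR adjusted p-values from 7.59e-05 to 0.0111. With IL-2-REH, Cish rose at 90 min (1.1 ± 0.182, edgeR adjusted p = 0.0345) and 0 of the 9 were called at 4 hr, where with the replicate block Cish, Socs1 and Socs2 rose by 0.72 to 1.32 (adjusted p = 0.0259 to 0.0426). Of 7 genes of IL-1 receptor family signalling, Traf6 rose with IL-2 at 90 min (1.40 ± 0.216, edgeR adjusted p = 0.00595) and at 4 hr (0.94 ± 0.214, adjusted p = 0.0367). Of 11 JAK and STAT genes, Stat2 rose with IL-2 at 4 hr (0.82 ± 0.175, edgeR adjusted p = 0.0273). With the replicate block Jak3, the kinase bound to the common gamma chain, fell at 4 hr with IL-2 (-1.05 ± 0.19, edgeR adjusted p = 0.0061) and with IL-2-REH (-1.48 ± 0.192, adjusted p = 0.00158). Of the ligands of the chains, 8 of 12 were tested, and Il18 fell with IL-2 at 4 hr (-3.26 ± 0.79, edgeR adjusted p = 0.0468). In the fit with the replicate block, Il10 (-1.62 ± 0.444, edgeR adjusted p = 0.0449), Ebi3, a subunit of IL-27 (-1.29 ± 0.315, adjusted p = 0.0267), and Il21 (-4.42 ± 1.06, adjusted p = 0.025) fell there too. Of 11 effector Treg genes, Itgae, an integrin chain, fell with IL-2 at 4 hr (-1.76 ± 0.385, edgeR adjusted p = 0.0324).

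The same lists held more calls without unstimulated library 1, where 12.9%, 8.87%, 12.1% and 6.93% of all genes were called for IL-2 at 90 min, IL-2 at 4 hr, IL-2-REH at 90 min and IL-2-REH at 4 hr. Of the 11 JAK and STAT genes, 5, 5, 5 and 4 rose and 1 fell in each of these comparisons. Stat5a, the main STAT of the IL-2 receptor together with Stat5b, rose by 1.94 to 2.6 in all 4 (edgeR adjusted p = 3.11e-05 to 0.00033), and so did Stat3, Stat4 and Stat5b. Jak2 rose at 90 min and Stat2 with IL-2 at 4 hr, while Tyk2 fell at 90 min and Jak3 at 4 hr. Of the 17 chains of other cytokine receptors, Ifngr1 of the interferon gamma receptor rose by 2.07 to 2.29 in all 4 (edgeR adjusted p = 2.43e-05 to 0.000113), Ifnar1 rose at 90 min, Ifngr2 rose with IL-2-REH at 90 min and Ifnar2 fell with IL-2 at 4 hr.

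Of the partner and other interleukin receptor chains, 22 were then tested, and 4, 1, 3 and 0 rose while 3, 4, 2 and 2 fell. Il18rap, the partner of Il18r1, rose at 90 min with IL-2 (1.07 ± 0.222, edgeR adjusted p = 0.00801) and IL-2-REH (1.21 ± 0.224, adjusted p = 0.00453). Il15ra, which presents IL-15, and Il9r fell in all 4, Il15ra by 1.49 to 2.0 on the log2 scale. The call on Il2ra with IL-2 at 4 hr was kept (1.01 ± 0.292, edgeR adjusted p = 0.049), as was that on Il7r. Of the feedback inhibitors, Cish and Socs2 were called with IL-2-REH at 4 hr as well. Of the genes of IL-1 receptor family signalling, Sigirr fell at 90 min. Of the 9 ligands then tested, Il18 fell with IL-2 at 4 hr. Of the 11 effector Treg genes, 4 rose at 90 min with each cytokine, Ccr8, Rora and Tigit with both, Irf4 with IL-2 and Areg with IL-2-REH, and Itgae fell with IL-2 at 4 hr.

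The levels of the chains (log2 CPM after TMM scaling) were correlated in pairs across the 15 Treg libraries. These libraries share groups, numbers and unstimulated library 1, and how common such values of r are among all genes is not given here. Il6ra and Il27ra had a Pearson r of 0.87, Il12rb1 and Il27ra of 0.78 and Il18r1 and its neighbour Il1rl1 of 0.75. Il6ra had r of -0.79 with Il1rl1 and -0.77 with Il18r1, and Il4ra and Il12rb1 had r of -0.77. Il27ra had r of -0.75 with Il18r1 and -0.72 with Il1rl1. Il6st and Il21r had r of 0.67, and Il4ra and Il12rb2 of 0.66. Among 10446 genes, the closest to the chains were Nfkb1, Asxl1 and Aff1 for Il4ra (r of 0.949 to 0.958), Nfkbie, Faah and Per1 for Il21r (0.917 to 0.952), and Adam19, Fes and Casp8 for Il10ra (0.899 to 0.937). For Il27ra they were Rnf123, Kcnh2 and Zmynd8 (0.968 to 0.978), and for Il12rb1 Was, Parvg and Cdca7l (0.965 to 0.976). For Il6st they were 4930422G04Rik, Gxylt1 and Aff4 (0.959 to 0.977), for Il12rb2 Plagl2, Tmem131 and Map3k8 (0.914 to 0.932), for Il18r1 Rab23, Glud1 and Gtf2b (0.912 to 0.934), and for Il1rl1 Unc50, Zfyve16 and Aebp2 (0.941 to 0.968).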

How the data were processed

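RNA was sequenced (Kapa mRNA HyperPrep, HiSeq3000, 50 bp single-end) from 15 Treg and 5 CD8+ T cell libraries. The authors aligned reads to mm10 and deposited read counts per transcript, as uniquely mapped reads on exons, and RPKM values computed from them. The submitters' processing notes name Bowtie2 2.2.6, TopHat2 2.1.1, SAMtools 0.1.8 and bedtools 2.25.0; strand use in counting is not given in the sources used here. Of 31682 transcripts, the one with the most reads over the 20 libraries stood for each of 23992 symbols, 4343 of which had several. No 2 libraries held identical values (0 pairs).

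Treg counts were fitted with edgeR 4.0.16 (R 4.3.3, TMM scaling, filterByExpr, quasi-likelihood test, 15 libraries, 15009 genes, Benjamini-Hochberg adjustment, threshold 0.05). DESeq2 1.42.0, limma 3.58.1 on log2(RPKM + 1) and log2(RPKM + 0.1), a replicate block, the 2 groups of a comparison alone, no filter, the longest transcript and leaving out libraries were alternatives. Leaving out unstimulated library 1 together with the block, and leaving out both 4 hr libraries numbered 3, were chosen after seeing the data. Library numbers come from the labels. Deviations from group means of same-numbered Treg libraries had a mean correlation of 0.538 (lowest 0.121). That of differently numbered ones was -0.257, and centring on group means by itself pushes it below 0. Libraries of a number thus varied together, and what the numbers stand for is not given in the sources used here. CD8+ libraries and cell types were described without a test over genes of at least 1 RPKM on average. The members, the gene lists and the marker lists were chosen with earlier results of these data known; genes beyond the members were named where a list's test called them, and the 3 genes most correlated with each member were named, except for Il6ra, for which they are not reported here. The edgeR script was tested on simulated data. Depth, in reads on genes, was 20201392 to 63903764 (Tregs) and 38201667 to 45189835 (CD8+); intervals cover counting error or library spread only. Promoter windows and gene coordinates came from RefSeq (GRCm38), and shared exon bases from GENCODE vM21.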

Additional observations from a re-analysis of the deposited data

Results flagged for a closer look

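The single CD8+ comparison went the opposite way to all 3 same-numbered Treg pairs in 7 cases, as log2 ratios of RPKM + 1. Comparisons with unstimulated cells and between the cytokines were counted, and those between 90 min and 4 hr were not. The share of all genes that went opposite ways is not given here. With 1 CD8+ library per group none of these differences was tested. Il18r1 was -0.12 with IL-2 at 90 min, -0.31 with IL-2-REH at 90 min and -0.29 with IL-2-REH at 4 hr in CD8+ T cells, against 0.68 to 1.01, 0.30 to 0.67 and 0.06 to 0.47 in the Treg pairs. Il4ra was -0.68 with IL-2-REH at 90 min in CD8+ T cells, against 0.19 to 1.24 in the Treg pairs. Between IL-2-REH and IL-2, Il21r was -0.19 at 90 min and -0.73 at 4 hr in CD8+ T cells, against 0.55 to 1.0 and 0.33 to 0.84 in the Treg pairs. Il12rb1 was -0.02 at 90 min, less than its counting error of 0.37, against 0.08 to 0.41 in the Treg pairs.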

How the results depend on the processing

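edgeR over all 15 Treg libraries called 0 of the 10 chains in every comparison, and other settings called more; the cause was not tested. In the order IL-2 at 90 min, IL-2 at 4 hr, IL-2-REH at 90 min and IL-2-REH at 4 hr, each against unstimulated Tregs, the replicate block called 2, 4, 0 and 1 chains, DESeq2 4, 3, 0 and 2, and the replicate block without unstimulated library 1 called 9, 8, 8 and 6. Leaving out a library, or all libraries of a number, gave 0 to 6, 0 to 5, 0 to 7 and 0 to 4 chains. The share of all genes called moved too, to 12.9%, 8.87%, 12.1% and 6.93% without unstimulated library 1. For the other libraries left out it is not given here. For IL-2-REH against IL-2, DESeq2 called 1 chain at 4 hr, and the replicate block without unstimulated library 1 called 1 chain at 90 min and 1 at 4 hr. Between 4 hr and 90 min that last setting called 2 chains (IL-2) and 4 chains (IL-2-REH), and leaving out libraries gave 0 to 1 for IL-2-REH. The block changed no other count of called chains. Without the libraries numbered 1, 2 chains did not overlap between cell types (range 1 to 2), and the share of all genes in that setting is not given here. At a 4-fold limit, the 6 counts in CD8+ T cells went from 4, 2, 3, 2, 2 and 3 to 1, 0, 1, 0, 0 and 0. The share of all genes past that limit is not given here.

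Over 25 log2 fold changes of named chains in Tregs and 675 values under alternatives, 592 kept direction and side of the threshold, 76 kept direction and passed it, and 7 took the other sign. All 7 were of Il1rl1 at 4 hr. With IL-2 (0.18) it was -0.42 without the libraries numbered 2, -0.02 without IL-2 4 hr library 1, -0.25 without unstimulated library 2 and -0.31 without unstimulated library 3, in a range of -0.42 to 2.17. With IL-2-REH (0.26) it was -0.36 without the libraries numbered 2, -0.17 without unstimulated library 2 and -0.22 without unstimulated library 3, in a range of -0.36 to 2.26. The difference of Il10ra between cytokines stayed between -1.01 and -0.93 at 90 min and between -1.0 and -0.79 at 4 hr, and that of Il21r between 0.64 and 1.08 and between 0.37 and 0.90. With 3 libraries a group for Tregs and 1 for CD8+ T cells, and as few as 77 reads of Il12rb2, small differences were not detectable.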
